A study of Mus musculus with 35 samples.

Results

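Bulk RNA-seq of whole hippocampus was compared between PS19 mice and wild-type (WT) mice at an age of 9 months. The members were chosen by their labels as the bulk libraries of that age, which are 9 of the 35 samples of the series: 4 PS19 libraries (replicates 1, 3, 4 and 5) and 5 WT libraries (replicates 1 to 5). All came from mice labelled C57BL/6. The PS19 genotype is a transgene for mutant human tau placed under the Prnp (prion protein) promoter, which is active in neurons and in other cells, and WT mice lack it. The labels give neither sex nor animal for the bulk libraries, so p-values measure the spread between libraries labelled as replicates. PS19 replicate 2 is not analysed here. Coordinates below are those of GRCm38.

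The hippocampus relays signals from granule neurons of the dentate gyrus to the pyramidal neurons of CA3 and CA1, mainly through glutamate synapses. Tau is a microtubule-binding protein of axons. In mice with mutant human tau it collects in neurons, and loss of synapses and neurons and activation of microglia and astrocytes are known features of this model.

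Libraries held 11989895 to 17182605 counts in WT and 11576982 to 12958200 counts in PS19. Mitochondrially encoded genes took 2.96% to 3.49% of counts in WT and 3.22% to 3.51% in PS19, and ribosomal protein genes took 0.893% to 1.04% and 1.01% to 1.13%. Markers of the hippocampus were present in every library, with Prox1 of granule neurons at 74.9 CPM or more, Fibcd1 and Mpped1 of CA1 at 151 CPM or more and Cpne4 of CA3 and CA2 at 107 CPM or more. CPM are counts scaled to a common normalized library total. Expression in 3 libraries stood apart from the rest of their group. WT 3 was low in choroid plexus genes, with Ttr at 608 CPM against 3978 to 4627 in the other WT libraries. WT 5 was high in immediate early genes, with a summed level of 6926 CPM against 1396 to 2348. PS19 5 was high in interferon-stimulated genes, with a summed level of 1441 CPM against 454 to 626. For lists with 3 or more calls in a direction, the count without all 3 of these libraries is given below where it moved by over 1.5 times.

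**Figure D1:**
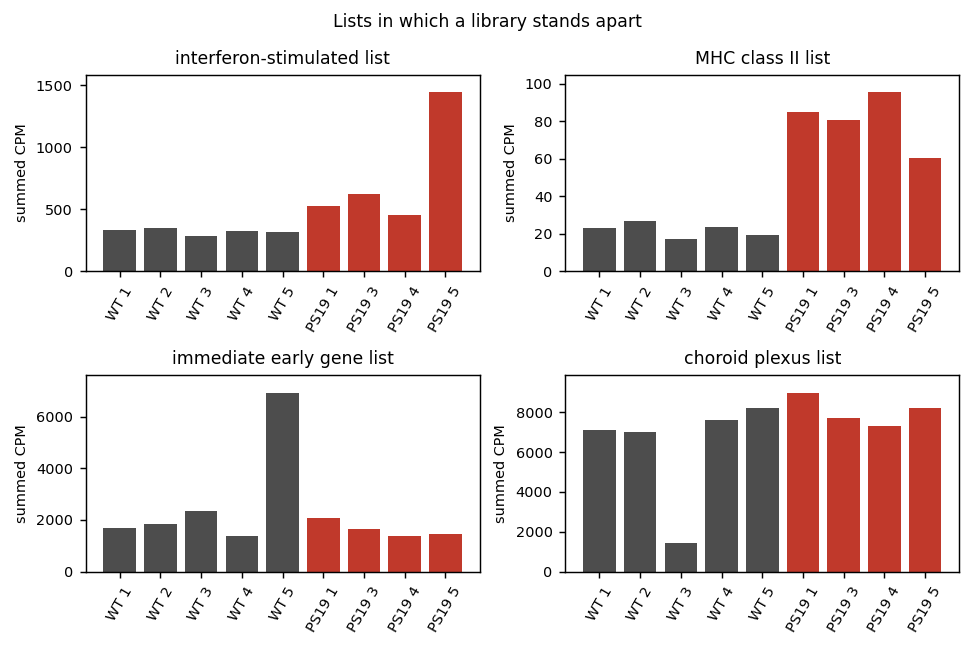
Summed CPM of the members of 4 gene lists in each library, WT in grey and PS19 in red. WT 5 stands highest in immediate early genes, WT 3 lowest in choroid plexus genes, and PS19 5 highest in interferon-stimulated genes but lowest of the PS19 libraries in genes of MHC class II.

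The labels were first compared with Prnp and Mapt. Prnp (chromosome 2, 131909928 to 131938429) was at 909.6, 935, 891, 982 and 891 CPM in WT 1 to 5 and at 2052, 1981, 2282 and 2184 CPM in PS19 1, 3, 4 and 5. Mapt, the mouse tau gene (chromosome 11, 104231390 to 104332090), was at 474, 481, 502, 426 and 474 CPM in WT and at 663, 611, 688 and 646 CPM in PS19. Every PS19 library was above every WT library in both genes (log2 fold change 1.21, SE 0.06, edgeR adjusted p 4.3e-12 for Prnp and log2 fold change 0.47, SE 0.06, edgeR adjusted p 8.3e-06 for Mapt). The counting of transgene reads is not given in the sources used here, so these values are sums of native and possibly transgenic reads.

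More genes were higher than lower in PS19, and the lower genes differed by less. A gene is called where its Benjamini-Hochberg adjusted p in the quasi-likelihood test of edgeR is under 0.05, and 2060 of 16133 tested genes (12.8%) were, 1239 higher (7.68%) and 821 lower (5.09%) in PS19. The 821 lower genes had a median log2 fold change of -0.27, which is a change of -17.3%, and 37 of them (4.51%) fell by more than 1 on the log2 scale. The 1239 higher genes had a median of 0.68, a fold of 1.6, and 405 (32.7%) rose by more than 1. Lower genes were the more abundant, with a median WT level of 121 CPM against 11.3 CPM for higher genes and 21.2 CPM for all tested genes. The 2 groups of libraries did not overlap for 536 of the lower and 1025 of the higher genes, where 5.13% and 8.01% of all tested genes had such groups in these directions. Calls that held whichever library was left out numbered 248 for lower and 763 for higher genes. Lower genes numbered 506 without WT 5, 537 without PS19 3, 475 without PS19 4 and 361 without PS19 5, and higher genes 824 without PS19 5. Without the 3 libraries that stood apart, with 3 WT and 3 PS19 libraries left, 123 genes were lower and 571 higher. Scaling by library totals alone gave 530 lower and 1420 higher genes, so that higher genes were 72.8% of the calls in place of 60.1%.

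The share of genes called in each direction differed with the length and level of genes. In the quartile of tested genes with the longest exons, 412 were lower (10.2%) and 230 higher (5.71%), and in the shortest quartile 66 were lower (1.64%) and 320 higher (7.93%). Among the most abundant quartile, 570 were lower (14.1%) and 223 higher (5.53%), against 38 (0.942%) and 298 (7.39%) of the least abundant. The median log2 fold change was 0.04 in the shortest and -0.06 in the longest quartile. By level it was 0.07 in the least and -0.06 in the most abundant quartile. How far the shares depend on the counts available per gene was not tested, nor was the link between length and level. These shares and medians are a description across genes, which are not independent.

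**Figure D2:**
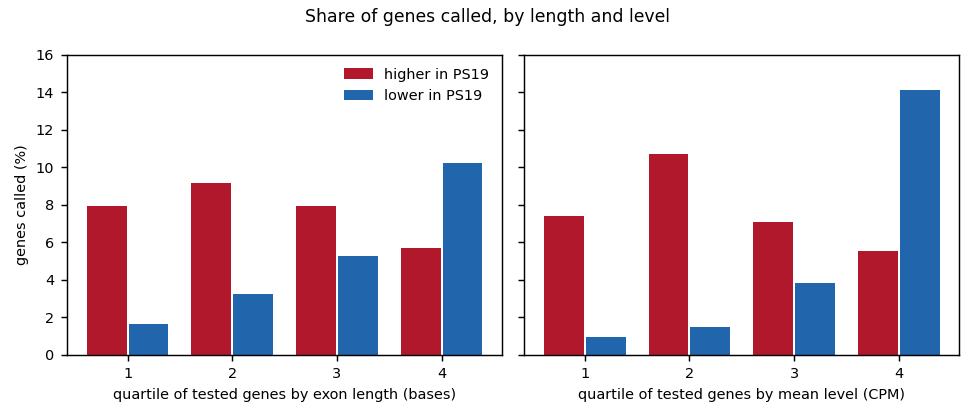
Share of tested genes called higher (red) or lower (blue) in PS19, in %, by quartile of exon length (left) and of mean level (right), from the lowest quartile 1 to the highest quartile 4. Lower calls rise to 10.2% in the longest and 14.1% in the most abundant quartile.

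Genes of neurons and synapses were mostly on the lower side. Over 19 lists of neuron types, receptors, channels, synaptic proteins and neuronal structure, 575 genes were tested, of which 138 were lower (24%) and 7 higher (1.22%), beside 5.09% and 7.68% of all tested genes. These 138 are 16.8% of all lower genes, and 58 of them kept their call on leaving out any library. The lower count was 84 without WT 5, 90 without PS19 4, 68 without PS19 5 and 16 without all 3 libraries that stood apart, where 215, 212, 209 and 131 were lower at an unadjusted p under 0.05. Their median log2 fold change over all 575 was -0.19, beside -0.01 over all tested genes. The 7 higher ones were Mapt, the granin Scg3, the peptide-processing enzyme Cpe, the receptors Adora3, Cnr2 and Ephb4, and Sema4d (named because the count is small, after their values were seen). Adora3 and Cnr2 were at a low level, with WT means of 0.831 and 0.369 CPM. Adora3 shares exons with Tmigd3, and the groups overlapped for Cnr2. Which cells express these 7 genes was not tested. Of these 7, Mapt, Scg3, Cpe and Adora3 were called whichever library was left out, and Adora3 was not without all 3 libraries (edgeR adjusted p 0.15). The adjusted p of Cnr2, Sema4d and Ephb4 reached 0.089, 0.195 and 0.21 by edgeR on leaving out a library. In bulk tissue, fewer cells of a type and less RNA per cell cannot be told apart, nor can less neuronal RNA and a greater share of RNA from other cells.

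**Figure D3:**
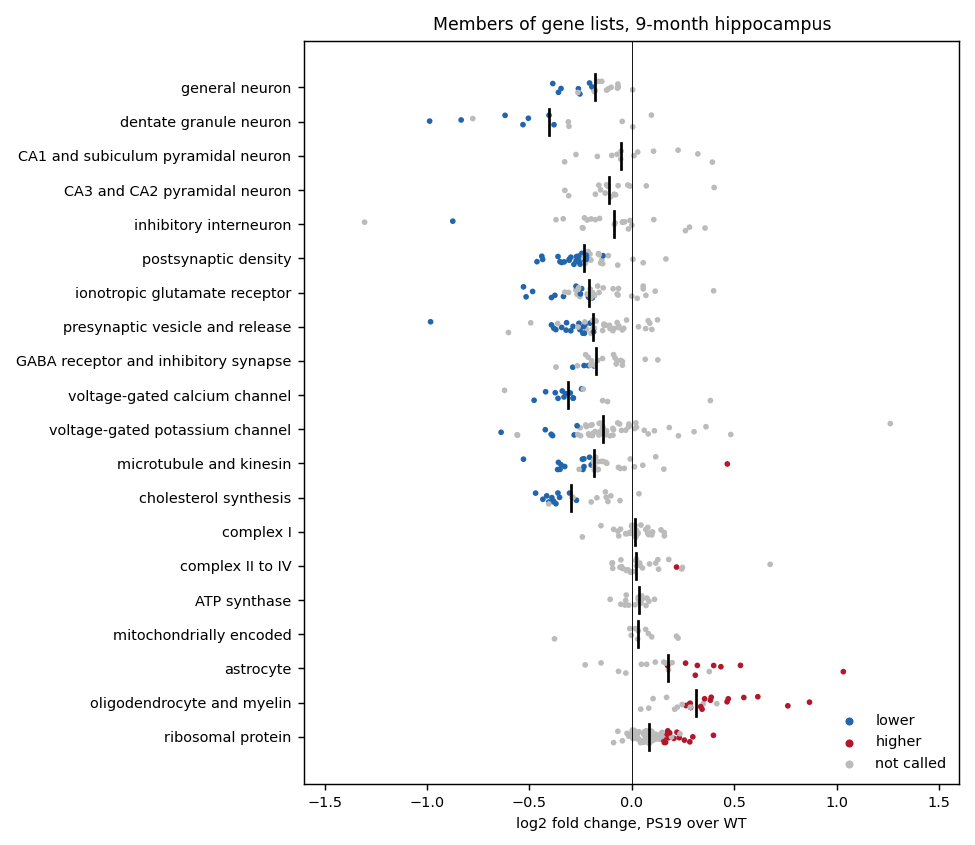
Log2 fold change of PS19 over WT for each tested member of 20 gene lists, coloured by call, with the list's median as a black bar. Calls are lower in synaptic, channel and cholesterol synthesis lists and higher in astrocyte and myelin lists, while the respiratory chain lists lie around 0.

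Markers of dentate granule neurons were among the lower lists. Of 13 granule neuron genes, 7 were lower and none was higher, and the median log2 fold change was -0.40. Their summed level was 706, 762, 679, 763 and 893 CPM in WT 1 to 5 and 539, 605, 556 and 545 CPM in PS19, so that the groups did not overlap and the ratio of means was 0.738. Prox1, the transcription factor that defines granule neurons (chromosome 1, 190118035 to 190170714, overlapping Prox1os), was at 108, 127, 129.6, 114 and 126 CPM in WT and 74.9, 96.9, 88.1 and 80.98 CPM in PS19. All PS19 libraries were below all WT libraries for it (log2 fold change -0.51, SE 0.09, edgeR adjusted p 3.0e-04). Dsp, which encodes desmoplakin, a protein of cell junctions, ranged from 44.8 to 71.6 CPM in WT and from 20.7 to 48.4 CPM in PS19, with overlapping groups (log2 fold change -0.83, SE 0.21, edgeR adjusted p 0.0096). Dock10, an exchange factor of small GTPases, and Stxbp6, a SNARE-binding protein, fell by 0.38 (SE 0.11, edgeR adjusted p 0.021) and 0.40 (SE 0.12, edgeR adjusted p 0.026), and Stxbp6 was at -0.27 without WT 5. Prox1 was the only member of the 7 called whichever library was left out, with a largest adjusted p of 0.0025 by edgeR. The list's count was 2 without WT 5 (7 at an unadjusted p under 0.05), 3 without PS19 1 (8) or PS19 4 (8), 2 without PS19 5 (9) and 3 without all 3 libraries that stood apart, with medians of -0.38 in this last case and -0.40 in the full set.

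Pyramidal neuron markers gave no call in the 4-group edgeR fit of all libraries. For CA1 and the subiculum, 0 of 13 genes were called, 1 was higher and 1 lower at an unadjusted p under 0.05, DESeq2 called 0, and the median was -0.05. With the replicate block, and also without WT 1, 1 gene was called lower. Fibcd1, a CA1 membrane protein, was at 162, 179, 156, 172 and 160.4 CPM in WT and 159, 156, 151 and 153 CPM in PS19 (log2 fold change -0.10, SE 0.10, edgeR adjusted p 0.57). Mpped1 was at 197, 234, 202, 198 and 180.4 CPM in WT and 200.2, 217, 238 and 217 CPM in PS19 (log2 fold change 0.11, SE 0.10, edgeR adjusted p 0.54). Both genes overlapped between groups. For CA3 and CA2, 0 of 16 genes were called, with 1 lower at an unadjusted p under 0.05, 0 by DESeq2 and a median of -0.11, and Cpne4 was at 111, 118, 126, 135 and 161 CPM in WT and 130.4, 107, 115 and 114 CPM in PS19. That the granule neuron list moved further than the pyramidal lists was not tested as a difference.

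General neuron markers were lower in part. Of 20, 7 were lower with a median of -0.18, and their summed level was 20578 to 22008 CPM in WT and 17132 to 18811 CPM in PS19, without overlap. Map2, a dendritic microtubule protein (chromosome 1, 66175273 to 66442583), was at 1514, 1475, 1816, 1439 and 1567 CPM in WT and 1151, 1274, 1304 and 1147 CPM in PS19 (log2 fold change -0.36, SE 0.08, edgeR adjusted p 0.0036). Every PS19 library was below every WT library. Ncdn, a dendritic protein, Nefm, a neurofilament subunit, and Rbfox3, the antigen of the NeuN antibody, fell by 0.39 (SE 0.09, edgeR adjusted p 0.0038), 0.35 (SE 0.09, edgeR adjusted p 0.011) and 0.19 (SE 0.06, edgeR adjusted p 0.024). Rbfox3 was not called without any one of WT 4, WT 5, PS19 4 and PS19 5 (edgeR adjusted p 0.051 to 0.11) or with library totals only. The list had 4 lower genes without WT 4 and 3 without WT 5, PS19 4 or PS19 5, where 11, 10, 10 and 9 had an unadjusted p under 0.05. Without all 3 libraries that stood apart edgeR called 0, with 4 lower at an unadjusted p under 0.05 and a median of -0.11. Interneuron markers had 1 lower gene of 23 (4.35%, beside 5.09% of all tested genes), Calb2, and a median of -0.09.

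Calb2 encodes calretinin, a calcium-binding protein of mossy cells, Cajal-Retzius cells, some interneurons and young granule neurons. It lies on chromosome 8, 110137502 to 110168210 and was at 51.5, 45.5, 51.6, 40.9 and 52.1 CPM in WT and 33.6, 17.7, 24.6 and 29.6 CPM in PS19. No library of PS19 reached the lowest WT level (log2 fold change -0.87, SE 0.18, edgeR adjusted p 0.0026). Among 14 genes of new granule neurons and their progenitors, 3 were lower (21.4%, beside 5.09% of all tested genes), Calb2, Sox11 and Eomes. In the same list 2 were higher (14.3%, beside 7.68%), among them the progenitor gene Nes. Without all 3 libraries that stood apart 1 was lower and none higher (6 lower and 3 higher at an unadjusted p under 0.05). Eomes, a factor of intermediate progenitors, was at 2.95, 3.17, 2.65, 2.68 and 4.33 CPM in WT and 1.25, 0.155, 1.205 and 0.912 CPM in PS19. The groups were separate (log2 fold change -1.85, SE 0.51, edgeR adjusted p 0.017), at a low level, and the adjusted p by edgeR was 0.062 without PS19 3 and 0.052 without PS19 5. Nes, which encodes nestin, was also in the list of reactive astrocytes, and its adjusted p was 0.013 by edgeR and 0.058 without PS19 4 or PS19 5.

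The lower genes with the smallest p included regulators of dendritic spines, vesicle fusion and transcription. Tiam1, an exchange factor that activates Rac in dendritic spines (chromosome 16, 89787111 to 90143769), was at 117, 125, 149.7, 132 and 139 CPM in WT and 99.2, 86.9, 94.1 and 89.4 CPM in PS19. The highest PS19 library lay below the lowest WT library (log2 fold change -0.52, SE 0.06, edgeR adjusted p 2.6e-06). Otof, which encodes otoferlin, a calcium sensor of vesicle fusion best known from hair cells (chromosome 5, 30367062 to 30461932), was at 6.92, 8.75, 8.304, 9.19 and 8.02 CPM in WT and 3.58, 3.65, 4.13 and 4.03 CPM in PS19. Its level changed by -53.2%, again without overlap (log2 fold change -1.10, SE 0.13, edgeR adjusted p 4.5e-06). Crtc1, a coactivator of CREB (chromosome 8, 70382355 to 70439579), was at 283, 285, 307, 299.7 and 306 CPM in WT and 240.2, 239, 226 and 228 CPM in PS19 (log2 fold change -0.35, SE 0.05, edgeR adjusted p 9.3e-05), and its libraries varied little within each group. Kctd4, a BTB domain protein, fell by 0.52 (SE 0.08), Pitpnm2, a phosphatidylinositol transfer protein, by 0.51 (SE 0.08), and Shisal1, a membrane protein, by 0.49 (SE 0.08), with edgeR adjusted p of 1.3e-04, 2.0e-04 and 1.6e-04. Mapk8ip2, a scaffold of JNK signalling at synapses, fell by 0.28 (SE 0.05, edgeR adjusted p 2.4e-04), and Ntn5, of the netrin family, by 1.15 (SE 0.19, edgeR adjusted p 2.2e-04). The naming rule asked that the groups not overlap in these genes, so that is no result. Each kept its call on leaving out any library and without all 3 libraries that stood apart. Ntn5 shares exons with Sec1, and counts made without strand leave such a gene uncertain.

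**Figure D4:**
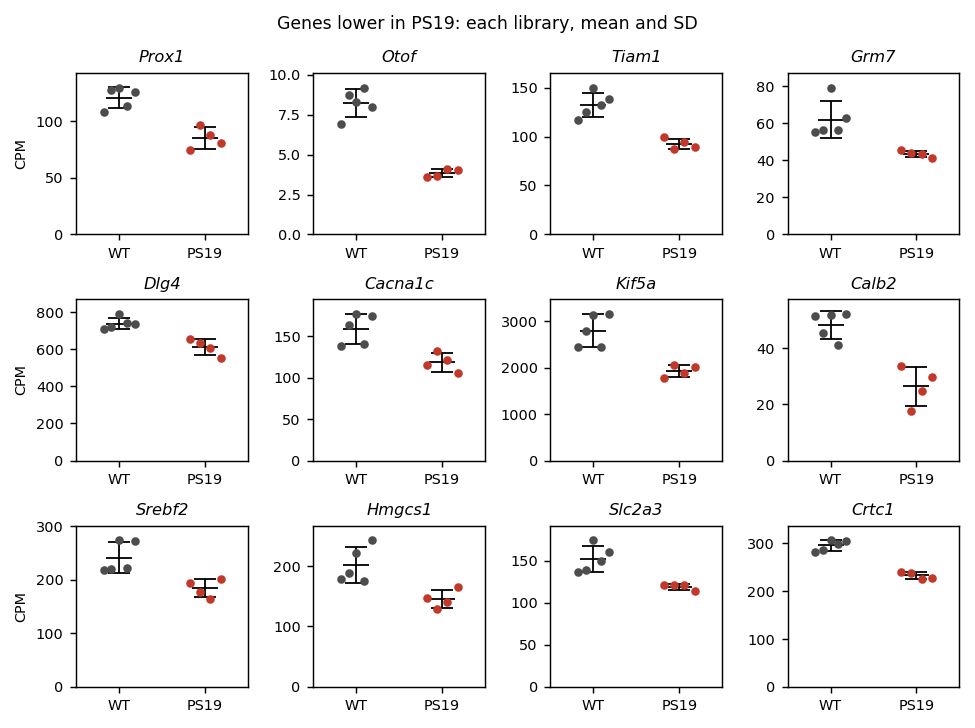
CPM of 12 genes lower in PS19 in each library (points), with the mean and SD of each group, on axes that start at 0. In each of the 12, every PS19 library lies below every WT library.

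Several of the genes with the largest falls owed part of their size to a single WT library. Krt2, a keratin, was at 8.14, 9.83, 38.6, 10.3 and 12.98 CPM in WT and 4.66, 4.74, 4.303 and 3.798 CPM in PS19, with WT 3 well above the rest (log2 fold change -1.88, SE 0.35, edgeR adjusted p 7.6e-04). Without WT 3 it fell by 1.24 (edgeR adjusted p 8.0e-05), so that the direction held at a smaller size. Sv2c, a protein of synaptic vesicles, was at 59.2, 43.1, 149, 49.8 and 62.7 CPM in WT and 41.2, 33.9, 32.8 and 40.03 CPM in PS19 (log2 fold change -0.98, SE 0.25, edgeR adjusted p 0.012), and its fall was 0.54 without WT 3 (edgeR adjusted p 0.019), and it was not called in a fit of the 9-month libraries only or without all 3 libraries that stood apart (edgeR adjusted p 0.11). Slc30a3, the zinc transporter that loads vesicles of mossy fibres, was at 65.5, 80.1, 121, 74.8 and 80.9 CPM in WT and 46.8, 60.9, 50.8 and 45.5 CPM in PS19 (log2 fold change -0.73, SE 0.14, edgeR adjusted p 0.0013), and at -0.56 without WT 3 (edgeR adjusted p 0.0024). WT 3 was thus the highest library of all 3 genes. Rasl11a, a small GTPase, was at 7.57, 8.58, 8.304, 6.99 and 34.6 CPM in WT and 5.99, 5.51, 3.701 and 6.53 CPM in PS19, and without WT 5, its highest library, it was no longer called (log2 fold change -0.52, edgeR adjusted p 0.13), as it was not without any one of the PS19 libraries (edgeR adjusted p 0.056 to 0.095).

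Proteins of the postsynaptic density anchor glutamate receptors opposite the release site. Of 40 such genes, 23 were lower (57.5%) and none was higher, the median was -0.24, and the 23 included scaffolds (Dlg2, Dlg3, Dlg4, Shank2, Dlgap2 and Dlgap4), kinase and phosphatase subunits (Camk2a, Ppp3ca and Ppp3cb) and adhesion proteins (Lrrtm1, Lrrtm2, Lrrtm4 and Nlgn3). Dlg4, which encodes PSD-95 (chromosome 11, 70016942 to 70047522), was at 707, 718, 789, 741 and 737 CPM in WT and 654, 634, 605 and 553 CPM in PS19. All PS19 libraries were lower, PS19 5 the lowest (log2 fold change -0.27, SE 0.05, edgeR adjusted p 0.0012). Dlg3, which encodes SAP102, fell by 0.28 (SE 0.06, edgeR adjusted p 0.0023), Baiap2, a regulator of spine actin, by 0.44 (SE 0.10, edgeR adjusted p 0.004) and Shank2 by 0.36 (SE 0.08, edgeR adjusted p 0.0046). The summed level of the list was 17768 to 19702 CPM in WT, 16354, 16328 and 16246 CPM in PS19 1, 3 and 4 and 15122 CPM in PS19 5. The count was 13 without PS19 5 (28 at an unadjusted p under 0.05), 12 genes kept their call on leaving out any library, and without all 3 libraries that stood apart edgeR called 0, with 19 of 40 lower at an unadjusted p under 0.05 and a median of -0.16.

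Calls among glutamate receptors and their auxiliary subunits were in the same direction. Of 38 genes, 11 were lower and none higher, with a median of -0.21, among them the AMPA subunits Gria2 and Gria3, the NMDA subunits Grin1 and Grin2b, Grid1, the metabotropic receptors Grm2, Grm5 and Grm7, and the auxiliary subunits Cacng8 and Neto1. Grm7, a receptor of the presynaptic active zone (chromosome 6, 110645581 to 111567230, overlapping Gm20387), was at 55.1, 56.6, 79.1, 56.4 and 63.005 CPM in WT and 45.4, 44.02, 43.4 and 41.02 CPM in PS19 (log2 fold change -0.52, SE 0.10, edgeR adjusted p 6.8e-04). Grin1, the subunit common to NMDA receptors (chromosome 2, 25291181 to 25319187, overlapping Grin1os), was at 305, 299, 363, 328 and 365 CPM in WT and 267, 263, 252 and 271 CPM in PS19 (log2 fold change -0.33, SE 0.08, edgeR adjusted p 0.005). Neither gene overlapped between the groups. Grm5 fell by 0.27 (SE 0.05, edgeR adjusted p 0.0014). The count was 7 without WT 4, WT 5, PS19 1 or PS19 4, 6 without PS19 3 and 4 without PS19 5 (13 to 20 at an unadjusted p under 0.05), and 2 without all 3 libraries.

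On the presynaptic side, 17 of 49 genes of vesicles and release were lower and none higher, with a median of -0.19. They included Bsn, Pclo, Rims1, Erc2 and Unc13a, which organise the active zone, and Syn1, Nsf, Cplx2, Doc2b and Amph, which act in vesicle fusion and recycling. Unc13a, which primes vesicles (chromosome 8, 71624417 to 71671757, overlapping Colgalt1), was at 353, 356, 390.4, 375 and 433 CPM in WT and 318, 310.1, 297 and 279 CPM in PS19 (log2 fold change -0.34, SE 0.07, edgeR adjusted p 0.0012). Synpr, synaptoporin of mossy fibre terminals (chromosome 14, 13284780 to 13616340), was at 134, 157, 134, 151 and 174 CPM in WT and 125, 115, 109 and 114 CPM in PS19 (log2 fold change -0.37, SE 0.08, edgeR adjusted p 0.0033). The PS19 libraries were below all WT libraries in both. Rims1 and Erc2 fell by 0.32 (SE 0.07, edgeR adjusted p 0.002) and 0.38 (SE 0.08, edgeR adjusted p 0.0036). The count was 9 or 10 without any one of WT 4, WT 5 and PS19 1, 3, 4 and 5 (26 to 30 at an unadjusted p under 0.05), and 1 without all 3 libraries. Of genes of the inhibitory synapse, 4 of 22 were lower (18.2%, beside 5.09% of all tested genes) with a median of -0.17. They included Slc12a5, the chloride exporter KCC2, at -0.29 (SE 0.06, edgeR adjusted p 0.0012), and the receptor subunit Gabra4 at -0.21, whose largest adjusted p on leaving out a library was 0.098 by edgeR. Without WT 3, WT 4, PS19 3 or PS19 5 this count was 2, and 7 without WT 1. It was 0 by edgeR without all 3 libraries, with 3 lower at an unadjusted p under 0.05.

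Voltage-gated calcium channels admit the calcium that triggers release and activity-dependent transcription. Of 16 subunits, 11 were lower (68.8%) and none higher, with a median of -0.31. Cacna1c, the L-type channel Cav1.2 (chromosome 6, 118587240 to 119196418), was at 138, 164, 177, 140.4 and 174 CPM in WT and 115, 132, 122 and 106 CPM in PS19 (log2 fold change -0.42, SE 0.09, edgeR adjusted p 0.0031). Its highest PS19 library was 132 CPM and its lowest WT library 138 CPM. Cacna1b and Cacna1e, the N-type and R-type channels, fell by 0.37 (SE 0.08, edgeR adjusted p 0.003) and 0.34 (SE 0.07, edgeR adjusted p 0.0037), and the auxiliary subunit Cacnb2 by 0.30 (SE 0.06, edgeR adjusted p 0.0031). Without PS19 5 the count was 4 (11 at an unadjusted p under 0.05), and without all 3 libraries 0 by edgeR (9 at an unadjusted p under 0.05). Among genes of calcium binding and calcium stores, 9 of 29 were lower, with a median of -0.19, and 5 without all 3 libraries. Ryr2, the channel that releases calcium from the endoplasmic reticulum (chromosome 13, 11553102 to 12106945), was at 321, 359, 419, 339 and 472 CPM in WT and 271, 273, 292 and 262 CPM in PS19 (log2 fold change -0.48, SE 0.09, edgeR adjusted p 0.0013). Hpcal4, a neuronal calcium sensor, was at 1021, 1159.7, 1228, 1121 and 1043 CPM in WT and 879, 946, 919.7 and 874 CPM in PS19 (log2 fold change -0.30, SE 0.06, edgeR adjusted p 0.0012), and Atp2b2, a calcium pump of the plasma membrane, fell by 0.35 (SE 0.07, edgeR adjusted p 0.0014). Without all 3 libraries Hpcal4 was still called (edgeR adjusted p 0.027), while Ryr2 and Atp2b2 were not.

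Other channel lists also held lower calls. Of 19 genes of sodium, HCN and related channels, 6 were lower (31.6%), among them Scn3a, the channel Nav1.3, at 69.6, 64.2, 69.6, 75.9 and 73.3 CPM in WT and 51.9, 56.8, 55.2 and 57.3 CPM in PS19 (log2 fold change -0.35, SE 0.06, edgeR adjusted p 6.2e-04), and Nalcn, a sodium leak channel, at -0.28 (SE 0.07, edgeR adjusted p 0.011). Of these 19 genes, 1 was lower without all 3 libraries (6 at an unadjusted p under 0.05). Among 53 potassium channel genes 6 were lower (11.3%), 3 without WT 5 (8 at an unadjusted p under 0.05) and 1 without all 3 libraries (6 at an unadjusted p under 0.05). Dpp6, an auxiliary subunit of A-type channels, fell by 0.27 (SE 0.06, edgeR adjusted p 0.0042), and Kcng1 was at 39.6, 44.7, 81.1, 41.2 and 40.5 CPM in WT, where WT 3 was highest, and 29.2, 34.9, 29.7 and 33.4 CPM in PS19 (log2 fold change -0.64, SE 0.15, edgeR adjusted p 0.0062), and at -0.38 without WT 3 (edgeR adjusted p 7.3e-04). The groups did not overlap in these genes.

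Genes of axonal transport and the cytoskeleton were lower in part. Of 36 microtubule, neurofilament and kinesin genes, 13 were called lower and 1, Mapt, was called higher, with a median of -0.18. Kif5a, a heavy chain of kinesin-1 (chromosome 10, 127225696 to 127263348), was at 2448, 2785, 3145, 2442 and 3158 CPM in WT and 1779.9, 2060.2, 1894 and 2016 CPM in PS19. WT 3 and WT 5 were the highest libraries, and all PS19 libraries were below the others too (log2 fold change -0.53, SE 0.11, edgeR adjusted p 0.0023). Kif5c, another heavy chain, fell by 0.35 (SE 0.06, edgeR adjusted p 5.0e-04). This count was 6 without PS19 5 (19 at an unadjusted p under 0.05) and 1 without all 3 libraries. Of 79 genes of axon guidance and adhesion, 13 were lower (16.5%, beside 5.09% of all tested genes) and 2 higher (2.53%, beside 7.68%). Their median was -0.15. Unc5a, a netrin receptor, was at 154, 167, 178, 175 and 169.7 CPM in WT and 129.8, 133, 119 and 136 CPM in PS19 (log2 fold change -0.38, SE 0.08, edgeR adjusted p 0.0018), and Plxna1, a semaphorin receptor, fell by 0.24 (SE 0.05, edgeR adjusted p 0.0022). Both had separate groups. Without WT 5, PS19 3 or PS19 4 the guidance count was 8, and without PS19 5 it was 6 (22 to 27 at an unadjusted p under 0.05). Guidance genes numbered 2 lower and none higher without all 3 libraries, with 16 lower and 2 higher at an unadjusted p under 0.05.

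Of 36 neuropeptide and granin genes 7 were lower (19.4%, beside 5.09% of all tested genes) and 2 higher (5.56%, beside 7.68%). Nptx1, a pentraxin that clusters AMPA receptors, was at 599.8, 630.3, 925, 647 and 745 CPM in WT and 549.9, 565, 486 and 522 CPM in PS19 (log2 fold change -0.42, SE 0.10, edgeR adjusted p 0.008), and Nrn1, neuritin, fell by 0.40 (SE 0.11, edgeR adjusted p 0.016, 0.051 without PS19 4 and 0.075 without PS19 5) and was at -0.26 without WT 3. In the other direction, Scg3, a granin of secretory granules (chromosome 9, 75643189 to 75684056), was at 227, 224, 248, 231 and 242 CPM in WT and 287, 299, 304 and 309 CPM in PS19 (log2 fold change 0.35, SE 0.06, edgeR adjusted p 3.0e-04), and Cpe, carboxypeptidase E, which trims peptide hormones, was at 2242, 2326, 2484, 2438 and 2363 CPM in WT and 2815, 2832, 2868 and 2753 CPM in PS19 (log2 fold change 0.25, SE 0.05, edgeR adjusted p 9.4e-04). Every PS19 library was above every WT library in both. Scg3 and Cpe kept their calls on leaving out any library. The lower count was 4 without WT 3, WT 5, PS19 1 or PS19 5, 3 without PS19 3 and 2 without PS19 4 (8 to 12 at an unadjusted p under 0.05). Without all 3 libraries 0 were lower by edgeR (5 at an unadjusted p under 0.05) and 2 higher.

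Immediate early genes are transcribed within minutes of neuronal activity, and here their result rested on WT 5. Of 40 genes, 6 were lower (15%, beside 5.09% of all tested genes), with a median of -0.45. Fosb was at 11.5, 10.2, 27.9, 8.86 and 403 CPM in WT and 19.5, 13.04, 7.06 and 9.88 CPM in PS19, and Egr4 at 12.7, 11.996, 14.7, 12.5 and 146 CPM in WT and 14.9, 7.07, 5.59 and 8.66 CPM in PS19. WT 5 was the highest library of both by far, and the other WT libraries overlapped with PS19. Without WT 5 the list had 2 lower and 2 higher genes and a median of -0.04, and Fosb and Egr4 had edgeR adjusted p of 0.69 and 0.17. Without PS19 3, 4 or 5 the lower count was also 2 (13, 8 and 12 at an unadjusted p under 0.05). Egr3 and Dusp4, a phosphatase of MAP kinases, had overlapping groups and were called whichever library was left out (log2 fold change -1.08, SE 0.26, edgeR adjusted p 0.0071 and log2 fold change -0.59, SE 0.14, edgeR adjusted p 0.0075), and Egr3 was at -0.66 without WT 5 and was not called in a fit of the 9-month libraries only. Without all 3 libraries that stood apart neither was called, 0 genes of the list were lower by edgeR (2 at an unadjusted p under 0.05) and 2 higher, and the median was 0.12.

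Among metabolic lists, cholesterol synthesis stood lower while respiratory chain genes gave almost no call. Brain cholesterol is made in place, through enzymes that the factor SREBP2 controls. Of 24 genes, 12 were lower (50%), none was higher and the median was -0.30. The lower genes included Srebf2 itself and the enzymes Hmgcs1, Fdps, Fdft1, Sqle, Cyp51, Msmo1, Sc5d and Dhcr7. Hmgcs1, at the entry of the pathway (chromosome 13, 119690379 to 119708260, overlapping Gm48342), was at 179, 188, 222, 175 and 243 CPM in WT and 148, 128, 141 and 165 CPM in PS19 (log2 fold change -0.47, SE 0.10, edgeR adjusted p 0.0029). Srebf2, which encodes SREBP2 (chromosome 15, 82147181 to 82205379), was at 218, 221, 273, 223 and 272 CPM in WT and 194, 176, 164 and 202 CPM in PS19 (log2 fold change -0.39, SE 0.07, edgeR adjusted p 5.6e-04). In both genes every PS19 library was below every WT library. Fdft1, squalene synthase, fell by 0.42 (SE 0.08, edgeR adjusted p 0.0012) and shares exon sequence with Ctsb, which rose, so its count without strand is uncertain. Between 8 and 13 genes were lower when a library was left out, and 9 without all 3 libraries that stood apart, with a median of -0.31.

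Calls among genes of lipid efflux and storage were mostly higher. Of 33, 9 were higher (27.3%, beside 7.68% of all tested genes) and 2 lower (6.06%, beside 5.09%, a similar share). The lower genes were Fasn and Scd1 of fatty acid synthesis (both named after their values were seen). The lower count was 0 or 1 on leaving out any library. Abca1, the cholesterol exporter (chromosome 4, 53030787 to 53159895), was at 86.99, 76.6, 77.6, 72.1 and 79.6 CPM in WT and 123, 131, 158 and 156 CPM in PS19 (log2 fold change 0.85, SE 0.09, edgeR adjusted p 3.5e-07). Its lowest PS19 library exceeded the highest WT library. Clu, Apoe and Apod, which encode lipid carriers, rose by 0.68 (SE 0.06, edgeR adjusted p 8.7e-08), 0.62 (SE 0.09, edgeR adjusted p 2.8e-05) and 1.08 (SE 0.15, edgeR adjusted p 2.0e-05). Without all 3 libraries 5 were higher (11 at an unadjusted p under 0.05) and 0 lower by edgeR (2 at an unadjusted p under 0.05). The difference between the 2 lists was not tested.

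Of 37 complex I genes edgeR called 0 in the 4-group fit, 2 were higher and 2 lower before adjustment (p under 0.05), and by DESeq2 the count was 0. With the replicate block 1 complex I gene was called lower. The log2 fold changes of the 37 genes ran from -0.24 to 0.16 with a median of 0.02. Complexes II to IV had 1 higher gene of 28 (3.57%, beside 7.68% of all tested genes). This was Sdhc, a subunit of succinate dehydrogenase, at 73.9, 71.9, 60.9, 77.5 and 70.1 CPM in WT and 82.2, 83.6, 81.2 and 82.5 CPM in PS19 (log2 fold change 0.22, SE 0.06, edgeR adjusted p 0.02, adjusted p 0.051 without WT 3 and 0.055 without PS19 5). Neither ATP synthase, with 0 of 18 by edgeR, 0 by DESeq2 and none at an unadjusted p under 0.05, nor the mitochondrially encoded genes, with 0 of 11 by edgeR, 0 by DESeq2 and none at an unadjusted p under 0.05, gave a call. mt-Co1, a subunit of complex IV, was at 11425, 12052, 11598, 12531 and 12189.8 CPM in WT and 12040.2, 12032, 12981 and 13089 CPM in PS19 (log2 fold change 0.07, SE 0.07, edgeR adjusted p 0.60).

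Fuel transport divided by gene. Slc2a3, the neuronal glucose transporter GLUT3 (chromosome 6, 122727809 to 122801640), was at 137, 139.7, 175, 149.7 and 160.2 CPM in WT and 121, 121, 121 and 114 CPM in PS19, lower in every PS19 library (log2 fold change -0.35, SE 0.07, edgeR adjusted p 7.3e-04). Slc16a7, the neuronal lactate transporter MCT2, fell by 0.31 (SE 0.09, edgeR adjusted p 0.019, and 0.06 to 0.076 without WT 5, PS19 1 or PS19 3). Slc16a1, the lactate transporter MCT1 of glia and vessels (chromosome 3, 104638668 to 104658462), was at 60.1, 53.3, 51.7, 51.2 and 58.1 CPM in WT and 84.9, 69.1, 74.3 and 82.5 CPM in PS19, higher in every PS19 library (log2 fold change 0.50, SE 0.07, edgeR adjusted p 4.1e-05). Aldoc, the aldolase of astrocytes, rose by 0.32 (SE 0.06, edgeR adjusted p 8.7e-04). The glycolysis list of 27 had 3 higher (11.1%, beside 7.68% of all tested genes) and 4 lower genes (14.8%, beside 5.09%). Without any one of WT 3, 4 and 5 and the 4 PS19 libraries, 1 or 2 were lower (5 to 7 at an unadjusted p under 0.05). Without all 3 libraries that stood apart 0 were lower by edgeR (2 at an unadjusted p under 0.05) and 4 higher. In the list of the TCA cycle, 1 of 29 genes was higher (3.45%, beside 7.68% of all tested genes) and 1 lower (3.45%, beside 5.09%). The higher gene was Suclg2 (log2 fold change 0.46, SE 0.10, edgeR adjusted p 0.0022), which was not called without all 3 libraries that stood apart. The lower gene was Got1 (log2 fold change -0.16, SE 0.05, edgeR adjusted p 0.029), whose groups overlapped and whose adjusted p was 0.13 by edgeR without PS19 5.

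Markers of microglia and astrocytes were on the higher side. Microglia identity genes, 24 of 24 higher, had a summed level of 663, 689, 659, 645 and 625 CPM in WT and 1533, 1642, 1531 and 1997 CPM in PS19. Astrocyte markers had a summed level of 7065, 7321, 7555, 6763 and 6773 CPM in WT and 7924, 8539, 8967 and 8412 CPM in PS19, a ratio of 1.19, without overlap. Of 20 astrocyte genes edgeR called 8 higher and none lower in the fit of all libraries. DESeq2, the 9-month libraries alone and the replicate block each gave 1 lower gene, and leaving out a library gave at most 1. Aqp4, the water channel of astrocyte endfeet (chromosome 18, 15389496 to 15410982), was at 178, 205, 174, 168 and 197 CPM in WT and 305, 339, 389 and 477 CPM in PS19 (log2 fold change 1.03, SE 0.12, edgeR adjusted p 1.5e-06). Mlc1, a membrane protein of endfeet, rose by 0.53 (SE 0.06, edgeR adjusted p 1.1e-06), Atp1b2, a sodium pump subunit, by 0.44 (SE 0.06, edgeR adjusted p 1.9e-05) and Gja1, connexin 43, by 0.26 (SE 0.05, edgeR adjusted p 7.5e-04). Without all 3 libraries that stood apart 6 astrocyte genes were higher, and Gja1 was not called (edgeR adjusted p 0.055).

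**Figure D5:**
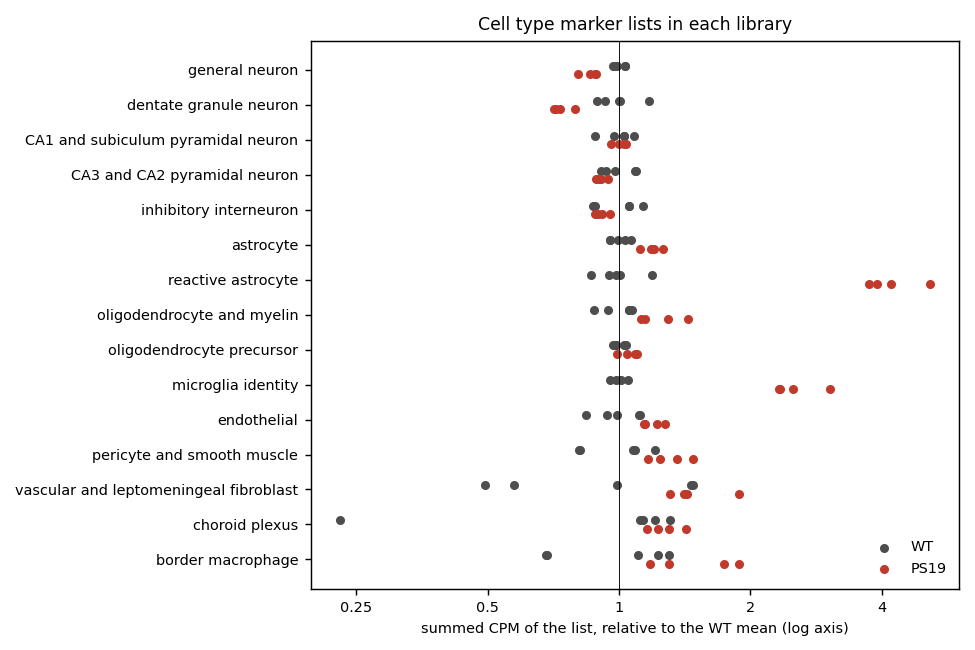
Summed CPM of each cell type marker list in each library, divided by the mean of the WT libraries, on a log axis, with WT in grey and PS19 in red. PS19 libraries lie below WT for granule and general neuron lists, above WT for astrocyte, reactive astrocyte, myelin and microglia lists, and overlap with WT for CA1, choroid plexus and fibroblast lists.

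Most genes of reactive astrocytes were higher. Of 33 genes, 27 were higher and none lower, with a median of 1.77. The 27 include genes that are also in immune lists, among them C3, C4b, Serping1, Cxcl10, Gbp2, H2-D1, H2-T23, Psmb8, Osmr and Stat3. Which cells express the genes of this list was not tested. Without all 3 libraries that stood apart 18 were higher and the median was 1.11. Gfap, the intermediate filament of astrocytes (chromosome 11, 102887336 to 102900912), was at 457, 519, 620.3, 439 and 534 CPM in WT and 2664, 2702, 3059 and 3306 CPM in PS19. The lowest PS19 library was more than 4-fold above the highest WT library (log2 fold change 2.51, SE 0.13, edgeR adjusted p 8.8e-12). Osmr, the oncostatin M receptor, and Serpina3n, a secreted protease inhibitor, rose by 2.26 (SE 0.13, edgeR adjusted p 8.8e-11) and 2.28 (SE 0.18, edgeR adjusted p 8.2e-09), and Ggta1, a galactosyltransferase, by 2.03 (SE 0.18, edgeR adjusted p 3.1e-08). In the list of the interleukin 6 family and STAT3, 6 of 12 were higher. Stat3, the transcription factor downstream of these receptors, was at 57.5, 53.8, 64.99, 56.4 and 49.1 CPM in WT and 87.2, 79.7, 88.7 and 101 CPM in PS19 (log2 fold change 0.66, SE 0.08, edgeR adjusted p 1.9e-06), and its feedback inhibitor Socs3 was at 2.45, 1.75, 1.38, 1.38 and 2.55 CPM in WT and 6.08, 11.1, 7.06 and 13.1 CPM in PS19 (log2 fold change 2.29, SE 0.33, edgeR adjusted p 4.3e-05). No PS19 library fell within the WT range of either gene. Slc14a1, a urea transporter of astrocytes, rose by 1.31 (SE 0.09, edgeR adjusted p 4.2e-10).

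Myelin genes were higher in part. Of 26 oligodendrocyte genes, 16 were higher and none lower, the median was 0.31, and the summed level was 6771, 7564, 7704, 6314 and 7570.2 CPM in WT and 8059, 8232, 9312 and 10342 CPM in PS19, highest in PS19 5. Trf, transferrin (chromosome 9, 103204001 to 103230444), was at 343, 365, 358, 311 and 409.8 CPM in WT and 617, 599.7, 621 and 771 CPM in PS19 (log2 fold change 0.87, SE 0.11, edgeR adjusted p 9.1e-06). Its groups did not overlap. Gsn, gelsolin, rose by 0.76 (SE 0.11, edgeR adjusted p 6.0e-05), Cldn11, of myelin tight junctions, by 0.62 (SE 0.10, edgeR adjusted p 9.7e-05) and Plekhb1 by 0.34 (SE 0.07, edgeR adjusted p 0.0018). The count was 8 without WT 1 or WT 4, 10 without PS19 4 and 5 without PS19 5 (16 to 19 at an unadjusted p under 0.05), and 6 without all 3 libraries. Of 16 precursor genes, 5 were higher, led by Bcas1 of newly formed oligodendrocytes (log2 fold change 0.42, SE 0.09, edgeR adjusted p 0.0019), and 2 or 3 without any one of WT 1 and PS19 3, 4 and 5 (6 or 7 at an unadjusted p under 0.05), and 1 without all 3 libraries (5 at an unadjusted p under 0.05).

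Iron handling and oxidative stress genes were often higher, 20 of 35, and none was lower, including 3 metallothioneins, the ferritin genes Fth1 and Ftl1 and subunits of the NADPH oxidase of phagocytes. Prdx6, a peroxidase rich in astrocytes (chromosome 1, 161240112 to 161251219), was at 203, 198, 172, 199 and 189.9 CPM in WT and 305, 362, 387 and 434 CPM in PS19 (log2 fold change 0.95, SE 0.07, edgeR adjusted p 5.0e-09). Cyba, an oxidase subunit, was at 4.68, 5.16, 4.81, 5.94 and 3.5003 CPM in WT and 14.5, 15.8, 17.04 and 17.4 CPM in PS19 (log2 fold change 1.75, SE 0.15, edgeR adjusted p 2.2e-08). Both were higher in every PS19 library. The count was 13 without all 3 libraries that stood apart (20 at an unadjusted p under 0.05).

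Levels of immune genes differed between PS19 libraries. Of 46 interferon-stimulated genes, 40 were higher and none lower, with a median of 1.52, and their summed level was 336, 352, 287, 326 and 319 CPM in WT and 529, 626, 454 and 1441 CPM in PS19. PS19 5 stood far above the other PS19 libraries, and all PS19 libraries were above WT. Without it 23 genes were called (39 at an unadjusted p under 0.05), and 11 without all 3 libraries, with a median of 0.87. Irf8, a factor of microglia (chromosome 8, 120736358 to 120756694), was at 5.48, 6.25, 4.81, 5.37 and 4.26 CPM in WT and 15.1, 16.2, 16.8 and 20.9 CPM in PS19 (log2 fold change 1.72, SE 0.13, edgeR adjusted p 2.3e-09). Slfn5, of the Schlafen family (chromosome 11, 82951349 to 82964840, overlapping Slfn5os), was at 5.26, 6.16, 4.39, 4.88 and 5.41 CPM in WT and 8.82, 10.4, 9.04 and 17.7 CPM in PS19 (log2 fold change 1.14, SE 0.18, edgeR adjusted p 1.4e-04). PS19 5 was the highest library of both, and neither gene overlapped between groups. Ifitm3, an antiviral membrane protein, and Parp9 rose by 1.64 (SE 0.25, edgeR adjusted p 9.3e-05) and 1.25 (SE 0.19, edgeR adjusted p 5.7e-05). Ifi44 was at 1.15, 0.833, 0.542, 0.488 and 0.318 CPM in WT and 3.08, 7.07, 3.701 and 24.9 CPM in PS19 (log2 fold change 3.87, SE 0.66, edgeR adjusted p 3.0e-04, and log2 fold change 2.80 without PS19 5). It reached the mean of 5 CPM asked of named genes through PS19 alone. Ifit1 and Isg15, named after their values were seen, are standard reporters of the interferon response. Ifit1 was at 1.87, 2.83, 2.23, 3.09 and 1.4001 CPM in WT and 5.74, 6.83, 3.87 and 36.1 CPM in PS19, and Isg15 at 1.297, 1.17, 1.32, 1.14 and 0.573 CPM in WT and 1.83, 3.42, 1.55 and 16.4 CPM in PS19. The groups did not overlap, but most of each difference came from PS19 5, and without it neither was called (edgeR adjusted p 0.13 and 0.099). Members of these families have near copies, and their levels are uncertain.

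Interferon acts through the interferon-stimulated response element, and its core, GAAANNGAA on either strand with overlapping matches allowed, was searched in the 250 bases before the start of each gene in the RefSeq promoters of GRCm38.p6. It was found in 17 of 36 matched promoters of the list (47.2%), beside 913 of 12284 tested genes (7.43%), 2211 of all 27025 genes in the table (8.18%), 10.0% of higher and 9.05% of lower genes. A gene with several starts counts if any of its windows holds a match. Immediate early genes held it in 8 of 30 (26.7%) and lysosomal genes in 5 of 44 (11.4%). The stretches around the matches are shown for Slfn5, Ifit1 and Isg15, which are genes with a match among those whose levels are given above, while Irf8 and Ifi44 had none in these windows, with each match in capitals and 20 bases on either side.
Slfn5 (chr11:82951927-82951998, plus strand): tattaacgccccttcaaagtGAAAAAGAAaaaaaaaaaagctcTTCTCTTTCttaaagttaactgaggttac
Ifit1 (chr19:34640760-34640833, plus strand): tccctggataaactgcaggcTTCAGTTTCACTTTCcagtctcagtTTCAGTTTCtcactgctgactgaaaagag
Isg15 (chr4:156200856-156200916, minus strand): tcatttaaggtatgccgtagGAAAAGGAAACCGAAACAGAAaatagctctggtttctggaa
The matches began between 155 and 132 bases before the start in Slfn5, between 109 and 84 in Ifit1 and between 78 and 66 in Isg15. These distances are from the RefSeq start, and for Slfn5 that start lies inside the GENCODE span given above, which begins further upstream, so the printed stretch does too. Slfn5 held 2 matches and Ifit1 and Isg15 held 3 each. These are matches of letters, and no binding was measured. The same search found the CRE, TGACGTCA, in 5 of 30 promoters of immediate early genes (16.7%), beside 2.89% of tested genes, 3.13% of lower genes and 1.00% of higher genes. The core of the CLEAR element, TCACGTGA, was in 4 of 44 promoters of lysosomal genes (9.09%), beside 1.62% of tested genes.

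Antigen presentation by class I and class II was not ordered alike across the PS19 libraries. Of 23 class I genes, 15 were higher with a median of 1.15, 10 without PS19 5 (15 at an unadjusted p under 0.05) and 4 without all 3 libraries that stood apart (12 at an unadjusted p under 0.05), with a median of 0.55. B2m, the light chain of class I (chromosome 2, 122147686 to 122153083), was at 67.3, 68.9, 60.6, 59.3 and 47.6 CPM in WT and 152, 193, 127 and 301 CPM in PS19 (log2 fold change 1.67, SE 0.22, edgeR adjusted p 1.5e-05), H2-K1, a heavy chain, at 24.1, 21.8, 22.02, 20.5 and 13.5 CPM in WT and 56.2, 67.9, 41.7 and 142 CPM in PS19 (log2 fold change 1.92, SE 0.33, edgeR adjusted p 3.5e-04), and Psmb8, a subunit of the immunoproteasome, at 1.95, 2.83, 1.62, 2.68 and 1.59 CPM in WT and 4.495, 6.52, 5.08 and 12.8 CPM in PS19 (log2 fold change 1.77, SE 0.29, edgeR adjusted p 1.6e-04). PS19 5 was the highest in each. Class II genes, 7 of 8 higher, had a summed level of 23.3, 26.7, 17.3, 23.6 and 19.6 CPM in WT and 85.1, 80.4, 95.3 and 60.2 CPM in PS19, and here PS19 5 was the lowest of the PS19 libraries. The class II count was 4 without all 3 libraries (6 at an unadjusted p under 0.05). Cd74, the class II invariant chain, was at 115, 95.6, 120.1 and 50.5 CPM in PS19 1, 3, 4 and 5, H2-Aa at 30.4, 26.6, 36.3 and 17.1 CPM and H2-Ab1 at 16.4, 15.9, 20.3 and 10.6 CPM. In these 3 genes, chosen after their values were seen, PS19 4 was the highest and PS19 5 the lowest PS19 library. H2-Oa, also called, had the other order, at 0.583, 2.096, 1.205 and 2.35 CPM in PS19 1, 3, 4 and 5, with groups that overlapped. With 4 libraries this order is a description. H2 genes have near-identical relatives, which leaves their levels uncertain.

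Markers of lymphocytes were scarce. Of 19 T cell and natural killer genes, 4 passed the filter on low counts and edgeR called 0 of them, with none at an unadjusted p under 0.05 and 1 by DESeq2. The summed level of all 19 was 4.901, 4.498, 5.54, 5.86 and 4.01 CPM in WT and 10.7, 9.86, 6.45 and 15.04 CPM in PS19, which did not overlap. Skap1 was at 0.903 to 1.42 CPM in WT and 0.988 to 1.79 CPM in PS19, and Lck at 0.573 to 1.75 and 1.12 to 2.41 CPM.

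Calls among genes of blood vessels and meninges were few, and their number changed with the library left out. Of 17 fibroblast genes none was called by edgeR (3 higher at an unadjusted p under 0.05, 0 by DESeq2, 1 without WT 1, 2 without WT 2 and 4 with the replicate number as a block), and Ptgds, a leptomeningeal gene, was at 1222, 1306, 955, 218 and 176 CPM in WT and 1086, 1222, 1071 and 1662 CPM in PS19, with WT 4 and WT 5 the lowest. Mrc1, a receptor of border macrophages, was also lowest in WT 4 and WT 5, at 6.63, 7.58, 6.44, 3.01 and 2.61 CPM in WT and 7.82, 12.97, 8.43 and 11.8 CPM in PS19 (log2 fold change 0.97, SE 0.29, edgeR adjusted p 0.029), and was not called without any one of WT 4, WT 5, PS19 3 and PS19 5 (adjusted p 0.073 to 0.095 by edgeR). Whether the meninges taken with the tissue bear on Mrc1 was not tested. Of 20 endothelial genes 2 were higher (10%, beside 7.68% of all tested genes, and 12 at an unadjusted p under 0.05), 4 without WT 1 or WT 2, 5 with the replicate block, 1 without WT 5, PS19 4 or PS19 5 and 0 by edgeR without all 3 libraries that stood apart (1 at an unadjusted p under 0.05). All 20 had a positive log2 fold change, and their summed level was 513 to 681 CPM in WT and 695 to 777 CPM in PS19, without overlap. Of 15 pericyte and smooth muscle genes 3 were higher (20%) and all 15 had a positive log2 fold change, and the summed level was 288 to 429 CPM in WT and 413 to 523 CPM in PS19, with overlap. The pericyte count was 0 by edgeR without WT 4, WT 5 or PS19 5 (6, 6 and 3 at an unadjusted p under 0.05), 0 in a fit of the 9-month libraries only (5 at an unadjusted p under 0.05), 5 with the replicate block and 1 without all 3 libraries. Among 20 choroid plexus genes edgeR called 0, none passed before adjustment (p under 0.05) and the count by DESeq2 was 0.

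The higher genes with the smallest p in no immune list held leukocyte genes as well as astrocyte genes. Plek, pleckstrin (chromosome 11, 16971206 to 17052381, overlapping Cnrip1), was at 14.4, 18.2, 14.4, 15.04 and 12.7 CPM in WT and 37.3, 49.6, 53.4 and 45.5 CPM in PS19 (log2 fold change 1.64, SE 0.11, edgeR adjusted p 7.0e-10). Csf3r, Csf2rb and Lcp1, which encode cytokine receptors and an actin-bundling protein of leukocytes, rose by 1.76 (SE 0.14, edgeR adjusted p 7.7e-09), 2.27 (SE 0.18, edgeR adjusted p 7.7e-09) and 1.69 (SE 0.13, edgeR adjusted p 8.2e-09). Abhd4, a lipid hydrolase, was at 72.5, 67.4, 70.9, 65.1 and 63.6 CPM in WT and 98.7, 108, 109.6 and 118 CPM in PS19 (log2 fold change 0.68, SE 0.05, edgeR adjusted p 5.0e-09), and Grn, progranulin of lysosomes, at 50.95, 54.8, 49.9, 54.3 and 55.6 CPM in WT and 109, 107, 102 and 133 CPM in PS19 (log2 fold change 1.09, SE 0.07, edgeR adjusted p 7.0e-10). The naming rule asked that the groups not overlap in these 6 genes, so that is no result. Tgm1, a transglutaminase, was at 0.3604, 0.2499, 0.1203, 0.325 and 0.318 CPM in WT and 3.996, 4.19, 1.98 and 11.1 CPM in PS19, highest in PS19 5 (log2 fold change 4.25, SE 0.47, edgeR adjusted p 8.9e-07). Tgm1 and Csf2rb reached the mean of 5 CPM asked of named genes through PS19 alone. For Tgm1 only PS19 5 was above 5 CPM.

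Signalling and stress lists added a few further genes. In the TGF-beta, BMP and Wnt list, 5 of 35 were higher (14.3%, beside 7.68% of all tested genes) and 1 lower (2.86%, beside 5.09%). Tgfbr1, the receptor kinase (chromosome 4, 47353222 to 47414931), was at 43.6, 45.5, 40.9, 38.7 and 41.3 CPM in WT and 70.9, 67.9, 67.9 and 71.5 CPM in PS19 (log2 fold change 0.73, SE 0.06, edgeR adjusted p 2.9e-08), Tgfbr2, its partner, rose by 0.95 (SE 0.13, edgeR adjusted p 2.2e-05), and the ligand Tgfb1 rose by 1.26 (SE 0.12, edgeR adjusted p 1.6e-07). Of 27 genes of p53, senescence and cell death 9 were higher (33.3%, beside 7.68% of all tested genes) and none lower. Without all 3 libraries that stood apart 5 were higher (11 at an unadjusted p under 0.05). Casp8, an initiator caspase, was at 3.82, 3.999, 2.83, 3.17 and 3.88 CPM in WT and 6.66, 6.68, 6.63 and 6.61 CPM in PS19 (log2 fold change 0.91, SE 0.18, edgeR adjusted p 0.0012), and Phlda3, a p53 target, rose by 0.55 (SE 0.11, edgeR adjusted p 0.0014) with overlapping groups. Chaperones (2 of 25 higher, 8%), the unfolded protein response (2 of 24, 8.33%) and the proteasome (2 of 38, 5.26%, the immunoproteasome genes Psmb8 and Psmb9) had shares near the 7.68% of all tested genes, and none lower in the 4-group edgeR fit. With the replicate block 2 chaperone genes were lower, and at most 1 was on leaving out a library. Ribosomal protein genes had 14 of 79 higher (17.7%, beside 7.68% of all tested genes) with a median of 0.09, led by Rps4x (log2 fold change 0.30, SE 0.06, edgeR adjusted p 0.0014). The count was 6 without WT 3, WT 5 or PS19 3 and 3 without PS19 5 (18 to 20 at an unadjusted p under 0.05). Without all 3 libraries 1 was higher (8 at an unadjusted p under 0.05) and the median was 0.04. Processed copies of these genes leave their counts uncertain.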

How the data were processed

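The bulk libraries were made from hippocampal RNA (RNeasy mini plus kit) with the SMARTER mRNA-Seq kit, per the labels' protocols. The deposited values are raw counts of reads for each gene. A header stands in 1 of the bulk tables and names featureCounts 2.0.0, which counted read pairs over exons, ignoring strand, with an mm10 gene annotation, per the file headers. Cutadapt, STAR and DESeq2 are named in the submitters' processing notes. All 21 bulk libraries, 12 of them from 4 months, entered a 4-group fit that shares 1 estimate of the spread, and the contrast used the 9 libraries of 9 months. Counts were tested with edgeR 4.0.16 in R 4.3.3 (filterByExpr, TMM, quasi-likelihood, two-sided, Benjamini-Hochberg over 16133 genes). Each SE given is the absolute log2 fold change divided by the square root of the F statistic of this test. It thus rests on the spread estimated from all 21 libraries and not from the 9-month libraries alone. The fit was tested on simulated data. Symbols came from the gene table deposited with a nuclei library, and coordinates and exon lengths from GENCODE M21 for 32235 of 32285 genes. Replicates differed by more than sampling noise, and none was counted as a duplicate. The 65 gene lists, the members and the alternatives were chosen with earlier results of these data known. Genes named are the 12 lower and 12 higher (in no immune list) with the smallest p, the 12 lower and 6 higher with the largest fold (groups not overlapping, and a mean of 5 CPM or more in WT for lower and in PS19 for higher genes, so that a higher gene can pass through PS19 alone), up to 4 called members per list by p, or its 2 most abundant where none was called, and Prnp and Mapt. Some genes this rule picks are not reported here. Each list's median is over tested members only, since genes low in all libraries were removed. Promoters were matched by symbol for 12284 tested genes. Alternatives were other size factors, DESeq2 1.42.0, other filters, 9-month libraries alone, a replicate block, a choroid plexus covariate and leaving out each library.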

Additional observations from a re-analysis of the deposited data

Results flagged for a closer look

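Of 149 genes and list sums described above, 18 had a library whose gap to its group was over Dixon's 95% limit. These were 19 flags, since Isg15 had 1 in each group. Each item was looked at in the WT group and in the PS19 group, and chance gives about 1 in 20 groups. The 19 flags are thus to be set against the groups and not the 149 items, and no excess over chance is claimed. Ifit1 and Isg15 were chosen after their values were seen. WT 3 stood apart in 8. It was highest of the WT libraries for Shisal1 (119 CPM, the others 87.8 to 95.7), Krt2 (38.6 CPM, the others 8.14 to 12.98), Sv2c (149 CPM, the others 43.1 to 62.7), Slc30a3 (121 CPM, the others 65.5 to 80.9), Baiap2 (396 CPM, the others 275 to 299) and Kcng1 (81.1 CPM, the others 39.6 to 44.7). It was lowest for Ttr (608 CPM, the others 3978 to 4627) and for the summed choroid plexus list (1446 CPM, the others 7033 to 8238).

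WT 5 stood apart in 5. It was highest for the immediate early genes Fosb (403 CPM, the others 8.86 to 27.9) and Egr4 (146 CPM, the others 11.996 to 14.7), for their list (6926 CPM, the others 1396 to 2348) and for Rasl11a (34.6 CPM, the others 6.99 to 8.58), and lowest for Isg15 (0.573 CPM, the others 1.14 to 1.32).

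PS19 5 stood apart in 5. It was highest of the PS19 libraries for Isg15 (16.4 CPM, the others 1.55 to 3.42), Ifit1 (36.1 CPM, the others 3.87 to 6.83) and Trf (771 CPM, the others 599.7 to 621), and lowest for Slc2a3 (114 CPM, the others 121 each) and for the summed postsynaptic density list (15122 CPM, the others 16246 to 16354). The summed interferon-stimulated list, by which PS19 5 was set apart above, was not among the flags. PS19 3 was highest for Dusp4 (21.3 CPM, the others 15.5 to 16.3).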

How the results depend on the processing

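Counts of called genes (2060, with 1239 higher and 821 lower) stayed within 1.5 times under the other size factors, filters, DESeq2, the replicate block and the choroid plexus covariate, except that lower genes numbered 530 with library totals only and 512 with the 9-month libraries alone. Leaving out each library gave 1185 to 2061 called, 824 to 1279 higher and 361 to 856 lower genes. Without the 3 libraries that stood apart, an alternative chosen after seeing the data that leaves 6 libraries, 694 genes were called, 571 higher and 123 lower, and 658 of the 694 were among the 2060. With the replicate number as a block, 2141 genes were called, 1204 higher and 937 lower. Same-numbered libraries shared deviations with correlations of 0.08, 0.07, 0.04 and 0.02 only, and PS19 3 correlated best with WT 2, so the numbers were not taken as pairs. Of named genes, 2 changed direction: Ttr (-0.0814 with the choroid plexus covariate) and Fosb (0.37 without the 3 libraries), neither called there. The medians of the TCA cycle list (0.0015 with library totals) and the V-ATPase list (0.00102 without the 3 libraries) crossed 0. In both genes and both lists the cause was not tested. Depth was 11576982 to 17182605 counts per library, and how it limits calls of low genes was not tested.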
